A study of Homo sapiens with 2 samples.

Results

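ROCK1 and ROCK2 encode 2 closely related coiled-coil protein kinases, the enzymes that the compound Y27632 inhibits. The transcripts of both genes were followed here in 293T, an established line derived from human embryonic kidney, with 2 microarrays, each read in 2 colours. The genes were found by the symbol of their probe, which gave 1 probe for ROCK1 (H200002681) and 1 for ROCK2 (H200005337), so 2 of the 24267 probes in the table and 2 of the 11057 named genes with a value on either array. Each array set untreated 293T cells, labelled with Cy5 and given a time of 0 h, against cells that had received 10 µM Y27632, labelled with Cy3. The treated cells had been exposed for 3 h on one array and for 6 h on the other. Cells of both groups were grown in Dulbecco's modified Eagle medium with fetal bovine serum, and no vehicle is named for the untreated cells. Inhibitor, vehicle, dye and time in culture therefore cannot be told apart. The dyes were the same way round on both arrays, so a dye bias of a probe would recur with the same sign. There was 1 array per time and no dye swap, and whether 1 preparation of untreated RNA served both arrays is not stated in the labels.

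ROCK1 and ROCK2 are serine/threonine kinases of the AGC group that are switched on when GTP-bound RHOA, RHOB or RHOC binds their coiled coil. They phosphorylate the myosin phosphatase subunit PPP1R12A and the myosin light chains, which raises actomyosin contraction, and the LIM kinases, which inactivate cofilin and so stabilise actin filaments. Y27632 competes with ATP in the catalytic domain of both enzymes. It blocks the activity of the proteins and does not act on their mRNA directly, so the array asks whether transcripts of the targets or of their pathway differ while the enzymes are inhibited.

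Each value is the deposited log ratio of the 2 channels, read as log2 here. Which channel is the numerator is not given in the sources used here, so signs are those of the table and no value is called a rise or a fall. Turning the sign turns every value in the text. A ratio gives no level of a transcript in either sample, and in bulk RNA fewer expressing cells and less RNA per cell cannot be told apart. No value has a replicate, so there is no test and no error between cultures. The only error at hand is the SD between different probes of a gene, pooled over the 572 genes for which at least 2 probes gave values at both times. It was 0.31 at 3 h, 0.33 at 6 h and 0.30 for the difference of the times.

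Transcript ratios of both kinases lay on the positive side at both times and were small. Of the 10469 named genes with a value on both arrays, 4233 (40.4%) were likewise positive on both. ROCK1 had a log ratio of 0.14 at 3 h, a 1.10-fold difference between the channels. At 6 h ROCK1 had 0.41, or 1.33-fold. ROCK2 had 0.39 at 3 h, or 1.31-fold, and 0.38 at 6 h, or 1.30-fold. In order, the 4 values were ROCK1 at 6 h, ROCK2 at 3 h, ROCK2 at 6 h and ROCK1 at 3 h, and the largest gap, between the last and the others, was smaller than the SD between probes. The value of ROCK1 at 3 h was 0.45 times the SD between probes, and the other 3 values were 1.14 to 1.26 times that SD.

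**Figure D1:**
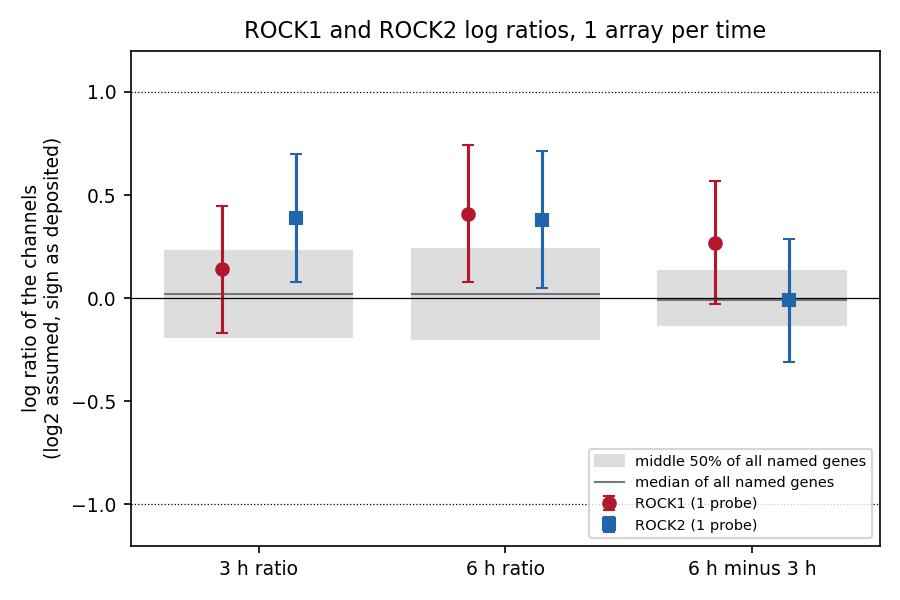
Log ratio of ROCK1 (circles) and ROCK2 (squares) on the 3 h array, on the 6 h array and as the difference of both, in log units with base 2 assumed and the sign as deposited. Bars are 1 SD between different probes of a gene (0.31, 0.33 and 0.30), grey boxes hold the middle 50% of all named genes and dotted lines mark a 2-fold difference. ROCK1 at 3 h (0.14) lies inside the grey box, and the other 3 ratios (0.38 to 0.41) lie above it and well below 1.

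A size of 1 log unit, a 2-fold difference, was passed by 0 of the 2 kinase genes at either time. Of all named genes with a value, 1.61% were past that size at 3 h and 1.43% at 6 h. At a smaller size of 1.5-fold, again 0 of 2 passed, against 9.36% of genes at 3 h and 9.86% at 6 h. Among 10810 named genes at 3 h, whose median was 0.02 and SD 0.36, 3701 had a higher ratio than ROCK1 and 1326 a higher ratio than ROCK2. Among 10716 genes at 6 h, with the same median and SD, 1315 lay above ROCK1 and 1511 above ROCK2. Taken by distance from 0 on either side, 66.7% of genes lay at least as far out as ROCK1 at 3 h. The corresponding shares were 22.4% for ROCK1 at 6 h, and 22.8% and 25.4% for ROCK2 at 3 h and 6 h. ROCK1 at 3 h was therefore nearer to 0 than most genes, and about 1 gene in 4 lay as far out as each of the other 3 values.

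The ROCK1 ratio was higher at 6 h than at 3 h by 0.27, a 1.21-fold change, which is 0.90 times the SD between probes of such a difference. Of 10469 genes with both values, 1259 had a higher difference than ROCK1. The ROCK2 ratio differed between times by −0.01. A difference of 1 log unit between the times was reached by 1.2% of genes and by neither kinase. If 1 untreated sample served both arrays, it drops out of this difference. Each time was read on its own array, so an effect of the array and one of the time cannot be told apart.

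Within an array, ROCK2 exceeded ROCK1 by 0.25 at 3 h, a 1.19-fold inequality of the 2 ratios, and fell short of it by 0.03 at 6 h (ROCK2 minus ROCK1, −0.03). The SD between probes expected for a difference of 2 single probes was 0.44 at 3 h and 0.47 at 6 h. The paralogs were thus not told apart at either time. Their mean was 0.27 at 3 h and 0.40 at 6 h.

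Since each kinase rests on 1 probe, genes with several probes show how far 1 probe speaks for its gene. When 1 probe of such a gene lay within 0.1 of the ROCK2 value at 3 h, which was the case for 146 probes of 131 genes, the gene's other probes had a median of 0.11 and middle 50% from −0.08 to 0.29. For the ROCK1 value at 3 h, 263 probes of 220 genes were matched by other probes with a median of 0.06. At 6 h the medians of the other probes were −0.0025 for the ROCK1 value (130 probes of 118 genes) and 0.04 for the ROCK2 value (147 probes of 129 genes). Each case is the mean of a gene's other probes, counted once for every matched probe of that gene. These means were positive in 48.5% of cases for ROCK1 and 53.1% for ROCK2 at 6 h. Over all genes with several probes, matched or not, 45.4% of single probes were positive at that time, which is a share of probes and not of means. At 3 h the shares were 57.4% and 66.4%, against 47.7% of single probes. A single probe near 0.4 was accompanied by other probes close to 0 at 6 h and slightly above 0 at 3 h. These shares describe other genes and give no error for the kinase probes themselves. The letters of both probes were not used here, so whether they also bind the partner kinase or ROCK1P1, a transcribed pseudogene of ROCK1, was not tested.

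**Figure D2:**
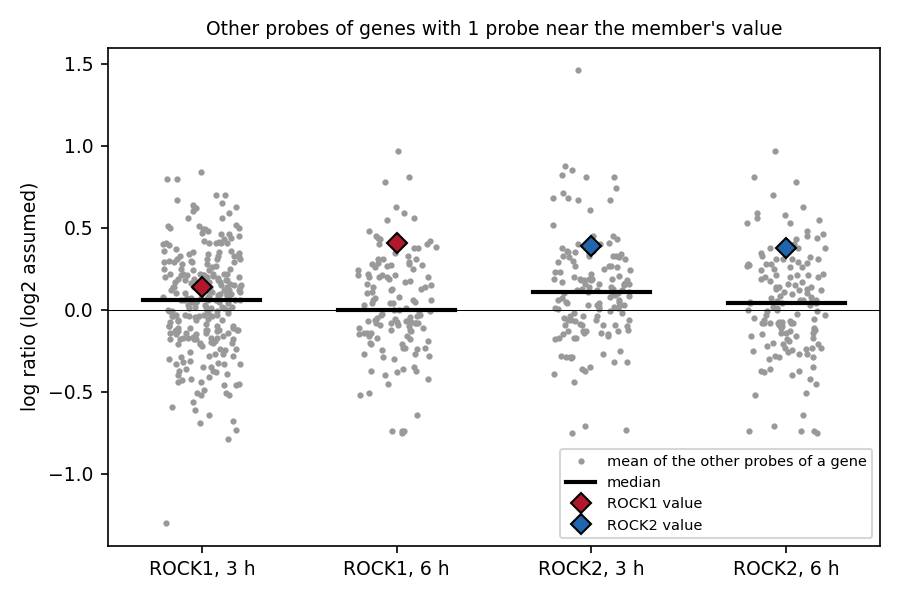
For each kinase and time, grey points give the mean log ratio of the other probes of genes that had 1 probe within 0.1 of the kinase's value, black bars their median, and diamonds the kinase's own value (base 2 assumed, sign as deposited). The medians (0.06, −0.0025, 0.11 and 0.04) lie below the diamonds (0.14, 0.41, 0.39 and 0.38).

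On the plane of both arrays, 25.8% of the 10469 genes had at least 0.14 on both arrays, as ROCK1 did, and 8.32% had at least 0.38 on both, as ROCK2 did. The genes most like each kinase were taken by the Euclidean distance of the 3 h and 6 h ratios, over 2 arrays and 10390 other genes without placeholder symbols. For ROCK1 they were DNAL4, a dynein light chain, with the same 2 values, NAMPT, an enzyme of NAD synthesis, at a distance of 0.0071, PLAA at 0.01, and APBA2 and the protocadherin gene PCDH18 at 0.014. For ROCK2 they were DNAJC12, a co-chaperone gene with the same 2 values, AP1S3, an adaptor subunit of clathrin coats, at 0.005, and ADCK1, the RNA-binding protein gene CELF1 and the lysosomal nuclease gene DNASE2 at 0.01. Such neighbours are many: 2479 genes lay within 0.31 of ROCK1 and 2347 within 0.31 of ROCK2. ROCK1 and ROCK2 lay 0.25 apart, and 1599 genes were closer to ROCK1 than ROCK2 was.

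**Figure D3:**
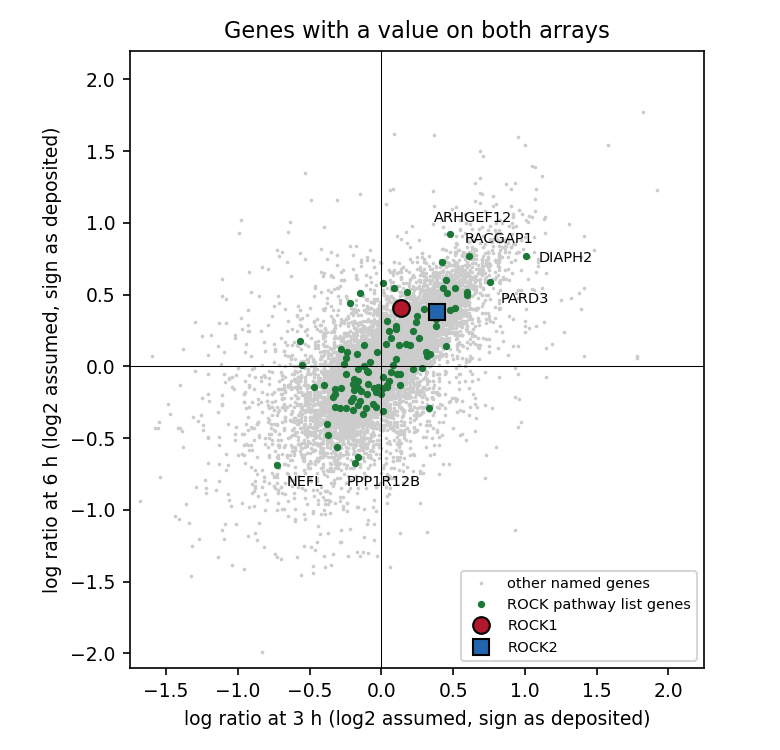
Log ratio at 3 h (x axis) and 6 h (y axis) of the genes with a value on both arrays (base 2 assumed, sign as deposited), with the genes of the ROCK pathway lists in green, ROCK1 as a red circle and ROCK2 as a blue square. Both kinases lie on the positive side of both axes, inside the cloud of all genes, ROCK1 at 0.14 and 0.41 and ROCK2 at 0.39 and 0.38.

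The pathway around the kinases was described with 9 lists, 151 genes in all without the kinases themselves, of which 118 had a probe by symbol. At 3 h the median of 109 measured genes was 0.01, with 55 positive and 53 negative, beside 0.02 for all genes. At 6 h the median of 113 genes was −0.01, with 55 positive and 57 negative, again beside 0.02. One gene, the formin gene DIAPH2, was past 2-fold at 3 h, or 0.92% of those measured, and none was at 6 h. At 1.5-fold 6 genes passed at 3 h (5.50%) and 11 at 6 h (9.73%), near or below the shares of all genes given above. Of the pathway genes, 33 lay above ROCK1 and 15 above ROCK2 at 3 h, and 19 and 24 did at 6 h.

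Upstream of the kinases, only RHOC and RND1 of the 6 genes listed for the activating and Rnd GTPases had a probe by symbol. RHOC, which encodes a GTPase that activates both kinases, had 0.10 and 0.05. RND1, an atypical GTPase that opposes RHOA signalling, had −0.21 and −0.24. RHOA, RHOB and RND3 had no probe under these symbols in the annotation used here, so the principal activator was not analysed here. Both measured GTPase genes stayed closer to 0 than ROCK2 did.

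Exchange factors, which load RHOA and its relatives with GTP, had medians of −0.15 over 13 genes at 3 h and −0.10 over 15 at 6 h, with 9 and 10 of them negative. ARHGEF12, an exchange factor that links G-protein-coupled receptors to RHOA, was the highest with 0.48 and 0.92. ECT2, which activates RHOA at the division furrow, had 0.45 and 0.60. ARHGEF5 had −0.38 and −0.40, and TRIO had −0.15 and −0.24. ARHGEF12 and ECT2 were thus above both kinases at each time, while most members of the list were below them.

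GTPase-activating proteins and dissociation inhibitors, which switch these GTPases off, had medians of −0.03 over 16 genes and 0.15 over 17. RACGAP1, the partner of ECT2 in the centralspindlin complex, was the highest by the mean of both arrays, with 0.61 and 0.77. ARHGDIB, a dissociation inhibitor, had 0.22 and 0.25, whereas the related ARHGDIA had −0.34 and −0.21 and ARHGDIG −0.13 and −0.33. Opposing regulators of these GTPases, RACGAP1 and ARHGEF12, therefore lay on the same side as the kinases.

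Other regulators of ROCK had medians of 0.07 and −0.09 over 10 genes. PDPK1, a kinase upstream of many AGC kinases, had 0.51 and 0.55, and TSG101, an ESCRT subunit, had 0.42 and 0.41. By the mean of both arrays, the lowest were NPM1, nucleophosmin, with −0.37 and −0.48, and RRAD, which encodes a small GTPase reported to inhibit ROCK, with −0.25 and −0.29. The 2 probes of NPM1 had −0.13 and −0.61 at 3 h, an example of how far probes of a gene can part. GEM, the relative of RRAD that binds ROCK1, had 0.33 at 3 h and −0.29 at 6 h.

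Downstream, 27 substrate genes had a median of 0.01 at 3 h and 26 had −0.04 at 6 h, and 14 and 10 were positive. PPP1R12A, the main myosin phosphatase target subunit, had 0.22 and −0.02. LIMK1 had −0.09 and −0.04 and LIMK2 −0.14 and −0.17, so the genes of the LIM kinases stayed near 0. Highest by the mean of both arrays were PARD3, a polarity scaffold, with 0.76 and 0.59, and RDX, the ERM protein radixin, with 0.35 and 0.42. Lowest was NEFL, the neurofilament light chain, with −0.73 and −0.69. PPP1R12B, a second phosphatase subunit, had −0.19 and −0.67 as the mean of 2 probes, which were −0.17 and −1.17 at 6 h.

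The output on myosin II and cofilin had medians of 0.01 and −0.04 over 19 genes. Of the myosin genes, MYL9, a regulatory light chain, had −0.16 and −0.63, MYH9 had −0.16 and −0.15, and MYH10 had 0.45 and 0.14. MYLK, the light chain kinase that acts beside ROCK, had −0.29 at both times. CFL1, cofilin 1, had 0.05 and −0.10. By the mean of both arrays the highest were TESK1, a cofilin kinase, with 0.46 and 0.51, and PPP1CC, a phosphatase catalytic subunit, with 0.48 and 0.39. Only MYL9 and PPP1R12B in this list were past 1.5-fold on either array, both at 6 h and with negative ratios. They made up 10.5% of the 19 genes, near the 9.86% of all genes at 6 h. PPP1R12B passed through 1 of its 2 probes, as given above.

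AGC kinases listed as related to ROCK were set beside it, without a comparison of sequences. In the order of the ratios at 3 h, ROCK2 was the third and ROCK1 the fourth of 10 genes, after MASTL, the Greatwall kinase of mitotic entry, at 0.60 and LATS1, a Hippo kinase, at 0.51. At 6 h LATS1 had the same 0.41 as ROCK1, and STK38, STK38L and MASTL were higher, with 0.58, 0.51 and 0.50. DMPK, the myotonic dystrophy kinase, was the lowest at both times, with −0.31 and −0.56. CIT, the citron kinase of cytokinesis, had −0.19 and −0.13, and CDC42BPA, which phosphorylates the same myosin phosphatase subunit, had −0.08 and 0.03. CDC42BPB had −0.19 at 6 h and no value at 3 h. DMPK lay below both kinases by more than the SD of a difference of 2 probes given above, at both times. MASTL and LATS1 lay within that SD of ROCK2 at both times. LATS1 also lay within it of ROCK1 at both times. MASTL was above ROCK1 by more than that SD at 3 h (0.60 against 0.14) and within it at 6 h (0.50 against 0.41).

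Other kinases listed as possible targets of Y27632 had medians of −0.04 over 13 genes and 0.01 over 15. PRKCB, a classical protein kinase C, had 0.60 and 0.52, and PRKACB, a catalytic subunit of protein kinase A, had 0.16 and 0.39. PRKACA, the other catalytic subunit, had −0.55 and 0.01, and PRKCD had −0.32 and −0.16. PKN2, an effector of RHOA that Y27632 also inhibits, had 0.12 and 0.15. These genes lay on both sides of 0, with 5 positive and 7 negative at 3 h and 8 and 6 at 6 h.

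Other effectors of RHOA, RHOB and RHOC, which share their activator with ROCK, had the highest medians of the 9 lists, 0.12 and 0.26 over 13 genes, with 8 positive at each time. DIAPH2, a formin that nucleates unbranched actin, had 1.01 and 0.77, and ANLN, the furrow scaffold anillin, had 0.42 and 0.73. DIAPH1, the formin most often paired with ROCK downstream of RHOA, had −0.06 and −0.26. RHPN1 had −0.32 and −0.28, and RTKN had −0.20 and −0.13. Formin genes thus lay on both sides of the kinases.

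**Figure D4:**
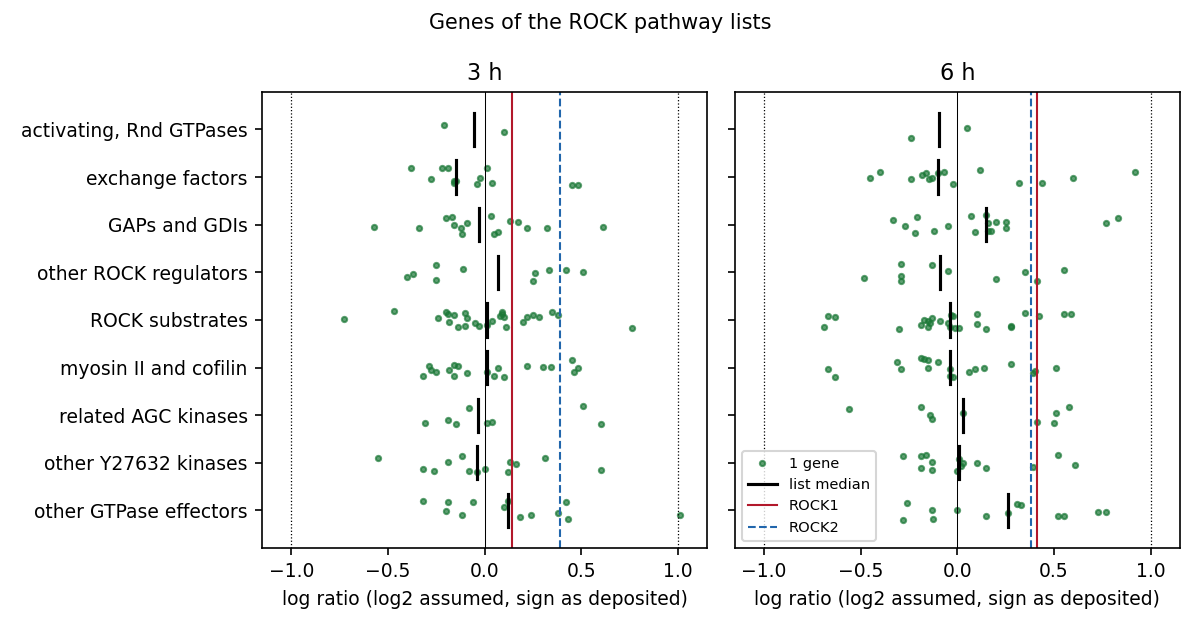
Log ratios of the genes in the 9 ROCK pathway lists at 3 h (left) and 6 h (right), 1 point per gene, base 2 assumed and sign as deposited; black bars are list medians, and vertical lines mark ROCK1 (solid red), ROCK2 (dashed blue) and a 2-fold difference (dotted). List medians run from −0.15 to 0.12 at 3 h and from −0.10 to 0.26 at 6 h, and DIAPH2 at 1.01 is the 1 gene past the dotted line.

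Genes associated with this cell line, 12 in number, had medians of −0.02 and −0.04, with 7 negative at 3 h and 8 at 6 h. NEFL, given above, was the lowest of them on both arrays, LHX1, a renal transcription factor, had −0.51 and −0.45, and the keratin gene KRT18 had 0.19 on both. Markers of blood, endothelial, muscle and fibroblast cells had medians of −0.14 over 10 genes and −0.27 over 9, with 9 and 8 negative. Of all named genes, 5130 of 10810 were negative at 3 h and 5074 of 10716 at 6 h. Ratios cannot show whether a marker is present, so the cell type was not checked by level, and the part of these markers in the kinase values was not tested.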

How the data were processed

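Gene expression was measured on 2 dual-colour arrays. The deposited table holds 1 log ratio per probe and array with 2 decimals, taken here as log2; its base and numerator, and how spots were corrected, normalized and filtered, are not stated in the labels. The 3 h array had values for 20503 probes and the 6 h array for 20337. Probes were named from the platform annotation (1 symbol for 13395 probes, several for 0, none for 10872). Of these symbols 10822 were current in the RefSeq table of GRCh38.p14, 2446 were replaced because a single gene lists them as a synonym, and 127 stayed as they were. Probes of a gene that had a value were averaged. Sizes were counted from 1 log unit (2-fold) and from 1.5-fold. The SD between probes was pooled within genes.

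The members and lists were chosen with earlier results of these data known. Named were 21 genes fixed by name (1 is not reported here), in each of 9 lists the 2 highest and 2 lowest by the mean of both arrays and any gene past 2-fold, and the 5 genes nearest each kinase. STK38, STK38L, STARD13 and VAV2 were named after their values were seen, as were the markers KRT18 and LHX1 and the comparison with other probes. Computation used Python 3.11.15, pandas 2.3.3 and numpy 2.4.6, and the averaging and the SD were tested on simulated data. Alternatives were the probe farthest from 0, centring, scale, log base, listed symbols, genes on both arrays, the mean and 1.5-fold.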

Additional observations from a re-analysis of the deposited data

Results flagged for a closer look

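Among the pathway genes, 8 had ratios of opposite sign at 3 h and 6 h and were either named by the rule or differed by at least 1.5-fold between the times. The differences (6 h minus 3 h) have no test, because 1 array was run per time. GEM had −0.62, from 0.33 to −0.29. STARD13, a GTPase-activating protein, had 0.75 (0.745 before rounding), from −0.57 to 0.18, and its 2 probes had −0.48 and −0.66 at 3 h but −0.08 and 0.43 at 6 h. VAV2, an exchange factor, had 0.66, from −0.22 to 0.44, and STK38L also had 0.66, from −0.15 to 0.51. PRKACA had 0.56, with its 6 h value at 0.01. PPP1R12A had −0.24, CFL1 −0.15 and CDC42BPA 0.11, all within the SD between probes of 0.30. Opposite signs occurred in 25 of 110 genes with both values, the kinases included (22.7%), and in 20.8% of all named genes. ROCK1 and ROCK2 kept 1 sign, and the part of dye in this was not tested.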

How the results depend on the processing

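Of 5 alternatives, only scale and log base moved the values of ROCK1 and ROCK2. Each kinase has 1 probe and the probe median was 0 on both arrays, so probe choice and centring could not move these values. Scale and log base multiply by a positive factor, so no ratio could change sign. The values and their differences moved by less than the SD between probes, and the differences kept their signs. The ROCK1 ratio ran from 0.14 to 0.20 at 3 h and from 0.40 to 0.59 at 6 h, ROCK2 from 0.39 to 0.56 and from 0.37 to 0.55. The upper ends are those with natural logarithms, under which ROCK1 at 6 h would pass 1.5-fold. Counts of pathway genes past the size, 1 at 3 h and 0 at 6 h, moved most. With natural logarithms they were 3 and 5, and with a size of 1.5-fold 6 and 11. With the probe farthest from 0, 1 gene passed at 6 h, PPP1R12B by its probe at −1.17. Pathway medians ran from −0.01 to 0.03 at 3 h and from −0.02 to 0.06 at 6 h, so their sign is not settled. No paired analysis was possible because there is 1 array per time and the labels give no replicate numbers. No replicate could be left out, and the number of arrays limits every value.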
